A study of Mus musculus with 12 samples.

Results

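The MAP kinase phosphatases and Sprouty proteins are inhibitors of MAP kinase signalling, and the transcripts of 10 of them (Dusp1, Dusp4, Dusp5, Dusp6, Dusp8, Dusp10, Dusp16, Spry1, Spry2 and Spry4) were followed in differentiating mouse muscle cells. The members were taken by name: each is a gene whose symbol is the only one annotated to at least 1 transcript cluster of the array, a set of probes read as 1 transcript. All 10 were measured, out of 19938 genes with such a cluster. Dusp8 had 2 clusters and was represented by the one with the higher mean over the 12 arrays, and the other 9 had 1 cluster each.

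The cells were C2i-Myog, a stable line made from the mouse myoblast line C2C12, which carries a doxycycline-inducible cDNA for Flag-tagged mouse myogenin (Myog), which drives the muscle gene programme. The growth medium of all samples held 10% fetal calf serum. All 4 groups were kept for 48 h in DMEM with 1% horse serum and insulin and transferrin at 10 µg/mL each, medium in which myoblasts stop dividing and fuse. Control cells received nothing more, although the control arrays' own label does not name differentiation and their place at 48 h comes from the protocol shared by every sample. The Dox group had doxycycline (0.2 µg/mL), the SB group had the p38α and p38β inhibitor SB203580 (10 µM), and the SB+Dox group had both agents, from the start of differentiation. Each group had 3 arrays, numbered by replicate. No group received doxycycline without the inducible cDNA, so doxycycline and exogenous Myog cannot be told apart. The labels do not say whether the replicates were separate cultures, and the p-values therefore measure only the spread between these arrays, which may be technical.

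MAP kinases are switched on by phosphorylation of a threonine and a tyrosine in their activation loop, and dual-specificity phosphatases (Dusp genes) remove both phosphates. Dusp6 acts on ERK in the cytoplasm and Dusp5 on ERK in the nucleus, Dusp4 and Dusp1 are nuclear, with Dusp1 acting on p38, JNK and ERK, and Dusp8, Dusp10 and Dusp16 act mainly on JNK and p38. Sprouty proteins dampen signalling from receptor tyrosine kinases to Ras and ERK. Many of these genes are themselves transcribed in response to the kinase they restrain, which makes them feedback inhibitors. In muscle precursors p38α and p38β favour differentiation, while ERK signalling favours proliferation, and Spry1 is known for its part in the return of mouse satellite cells to quiescence.

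Values are log2 RMA signals, so a difference of 1 is a change of 2-fold, and they can be compared between arrays but not between genes. Array medians over the 21789 tested clusters lay between 5.29 and 5.44, and arrays of 1 group correlated at 0.989 to 0.996. The Myog signal was 7.70 ± 0.68 with SB, 8.33 ± 0.30 with SB+Dox, 10.37 ± 0.05 with Dox and 9.91 ± 0.26 without either (log2 signal, SD, n = 3). Neither doxycycline change of Myog passed (0.46 in Dox against control, limma adjusted p = 0.467, and 0.64 in SB+Dox against SB, adjusted p = 0.157), and the latter passed without SB replicate 3 (0.89, adjusted p = 0.0311). With SB203580 Myog was called lower in SB against control and in SB+Dox against Dox. Over the 12 fits without 1 array the changes were -2.46 to -1.83 and -2.20 to -1.91, and neither call was lost. Myod1, a second muscle gene, was also called lower in both, though the former call was lost in 4 of these 12 fits. Neither doxycycline change of Myod1 passed, but that in SB+Dox against SB did under 5 of 8 other settings. All 10 myoblast and muscle markers examined had group means between 5.69 and 12.42. All 10 markers of leukocytes, endothelium, epithelium, adipocytes, hepatocytes and glia lay between 2.98 and 5.36, and none was listed at 0. These are signals of different genes, so the 2 ranges are a description and not a measure of cell type. The mean of the muscle markers ran from 9.99 to 10.33 over the control arrays, 10.16 to 10.31 over Dox, 9.25 to 9.80 over SB and 9.97 to 10.13 over SB+Dox. The SB arrays thus lay below all 9 others, while control overlapped with Dox and SB+Dox. Of the 10 muscle markers 1 was called higher and 5 lower in SB against control, where 2.51% and 3.87% of all clusters were. In SB+Dox against Dox the counts were 1 and 3 (6.97% and 3.43% of clusters). They were 4 and 0 in SB+Dox against SB (4.40% and 2.71%), and 0 and 1 in Dox against control (1.43% and 3.88%). The part of these differences in the changes below was not tested. No background level was available, and the precision is limited by 3 arrays per group.

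**Figure D1:**
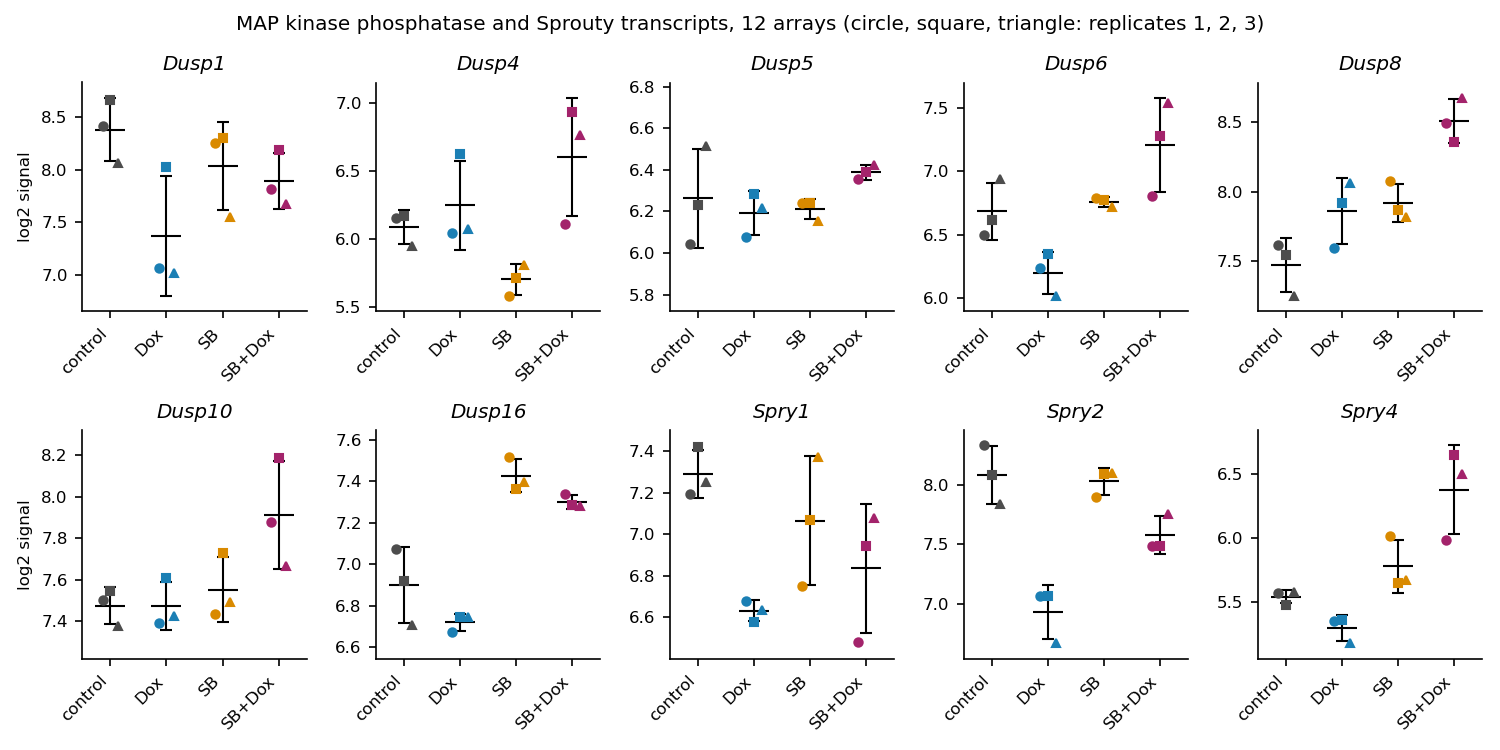
Log2 signal (vertical axis, own scale for each gene) of the 10 transcripts in control, Dox, SB and SB+Dox cells. Each coloured point is 1 array, and the black bar with whiskers is the mean ± SD of 3 arrays. The highest group mean is in SB+Dox for Dusp4, Dusp5, Dusp6, Dusp8, Dusp10 and Spry4, and the lowest is in Dox for all but Dusp4 and Dusp8.

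The effect of SB203580 on these inhibitors was asked first. In cells that also received doxycycline, 6 of the 10 transcripts rose with the inhibitor (SB+Dox against Dox) and 0 fell: Dusp6, Dusp8, Dusp10, Dusp16, Spry2 and Spry4, by 1.35-fold to 2.12-fold. In that comparison 10.4% of all tested clusters were called, 6.97% rising and 3.43% falling. In cells without doxycycline (SB against control) 1 of the 10 rose, Dusp16, and 0 fell, where 6.38% of all clusters were called, 2.51% rising and 3.87% falling. The median log2 change of the 10 was 0.55 with doxycycline and 0.01 without it, beside medians of -0.03 and 0.03 over all clusters. Counted by arrays alone, 7 members had all 3 SB+Dox arrays above all 3 Dox arrays and 0 had them below (15.6% and 13.5% of clusters), whereas 3 had all SB arrays above control and 1 had them below (10.3% and 9.72% of clusters). A rise or a fall means here an adjusted p under 0.05 from limma with Benjamini-Hochberg adjustment over all tested clusters.

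**Figure D2:**
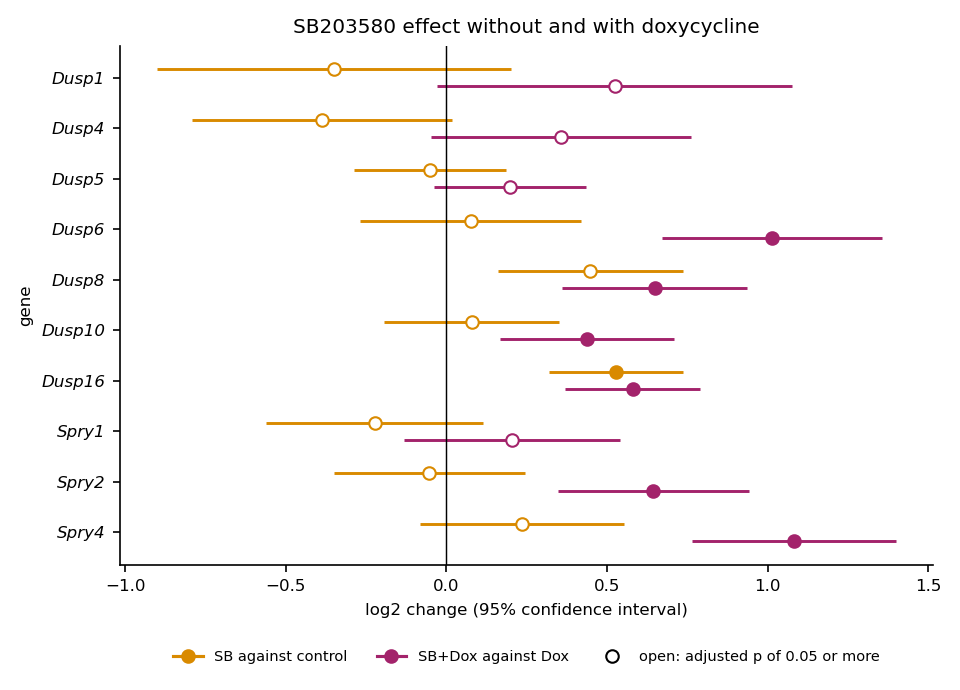
Log2 change with SB203580 (horizontal axis) for each gene, without doxycycline (SB against control, orange) and with it (SB+Dox against Dox, purple). Lines are 95% confidence intervals, and filled points have an adjusted p under 0.05. All 10 purple points lie to the right of 0, 6 of them filled, and 1 orange point is filled.

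Dusp6, the cytoplasmic ERK phosphatase, measured 6.49, 6.62 and 6.94 in control, 6.23, 6.35 and 6.02 in Dox, 6.79, 6.77 and 6.71 in SB and 6.81, 7.28 and 7.54 in SB+Dox (log2 signal, replicates 1 to 3). The 3 SB+Dox arrays lay above all Dox and all SB arrays, the 3 Dox arrays lay below all others, and control and SB overlapped. Adding the inhibitor to doxycycline raised Dusp6 2.02-fold (SB+Dox against Dox, log2 change 1.01, SE 0.16, limma adjusted p = 6.93e-04), a change that passed in all 12 fits without 1 array and under all 8 other settings. The inhibitor gave 0.08 without doxycycline (95% confidence interval -0.27 to 0.42). Doxycycline gave -0.48 without the inhibitor (adjusted p = 0.118) and 0.45 with it (adjusted p = 0.115). Neither passed, though each did without SB+Dox replicate 1 (adjusted p = 0.0414 and 0.0161). Its 250 bases upstream of the transcription start in the RefSeq promoter table (GRCm38.p6, chr10:99262981-99263230, plus strand) hold none of the motifs searched for. They are shown because Dusp6 had the largest change with the inhibitor among the members looked up that had a window. Spry4, which changed more, was not looked up.
Dusp6: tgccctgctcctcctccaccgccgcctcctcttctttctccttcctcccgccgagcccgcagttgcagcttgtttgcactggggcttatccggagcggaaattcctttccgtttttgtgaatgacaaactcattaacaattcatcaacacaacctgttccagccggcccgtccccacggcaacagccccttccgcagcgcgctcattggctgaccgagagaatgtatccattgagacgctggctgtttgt

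The motifs were TGACGTCA (the cyclic AMP response element, bound by CREB and ATF factors), its shorter form TGACGT, the E-box CAGCTG of the kind bound by myogenic factors, the AP-1 element TGAGTCA, the ETS element CCGGAAG and the CArG box bound by serum response factor. Each was searched for on both strands of the 250 bases upstream of the start. TGACGTCA contains TGACGT on both strands, and so the shorter form was counted within the longer. Of all 32851 windows, TGACGTCA was in 1.55%, TGACGT in 6.47%, CAGCTG in 13%, TGAGTCA in 4.46%, CCGGAAG in 6.91% and a CArG box in 1.47%. Of the 9 members other than Spry4, which was not looked up, all but Dusp4 matched a window. For Dusp8 and Dusp16 the table's start lies inside the gene's RefSeq span, downstream of its outermost start, and positions are counted from the table's start. Among these 8, TGACGTCA was found in 2 (Dusp1 and Dusp8), TGACGT in those and Dusp5, a CArG box in 1 (Dusp5), and the other motifs in 0.

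Spry4, a Sprouty protein, measured 5.57, 5.48 and 5.58 in control, 5.35, 5.36 and 5.18 in Dox, 6.02, 5.65 and 5.67 in SB and 5.98, 6.65 and 6.50 in SB+Dox (log2 signal). All 3 SB+Dox arrays lay above control and Dox, while SB+Dox replicate 1 fell just below SB replicate 1. Spry4 rose 2.12-fold from Dox to SB+Dox (log2 change 1.08, SE 0.15, limma adjusted p = 2.18e-04) and stood 1.79-fold above control there (0.84, adjusted p = 0.00344), and both calls held in every fit without 1 array and under all 8 other settings. In SB+Dox against SB it rose by 0.60 (SE 0.15, adjusted p = 0.0227). That call was lost without SB replicate 2 (adjusted p = 0.105), SB+Dox replicate 2 (0.107) or SB+Dox replicate 3 (0.112), with only the groups compared in the fit (0.0897) and with all clusters tested, symbol or not (0.0759). Its levels in control and Dox lay near the array medians.

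Dusp6 and Spry4 had the most alike patterns of any pair of members, with a Pearson correlation of 0.905 over the 12 arrays. The 45 pairs ranged down to -0.444, for Dusp8 and Spry1. These values describe 12 arrays in 4 groups, and pairs of genes share the arrays and the group differences.

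**Figure D3:**
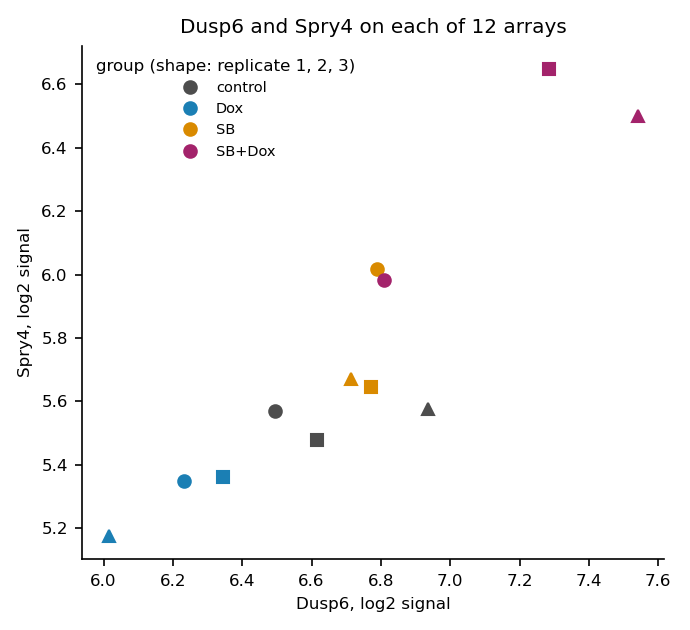
Log2 signal of Dusp6 (horizontal axis) and Spry4 (vertical axis) on each of the 12 arrays, coloured by group, with circle, square and triangle for replicates 1, 2 and 3. The 3 Dox arrays lie lowest on both axes, and SB+Dox replicates 2 and 3 lie highest on both.

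Spry2, the Sprouty gene with the largest change with doxycycline, measured 8.33, 8.08 and 7.84 in control, 7.06, 7.07 and 6.67 in Dox, 7.90, 8.09 and 8.10 in SB and 7.49, 7.48 and 7.76 in SB+Dox (log2 signal). Control and SB arrays overlapped at the top, SB+Dox lay below both, and Dox lay lowest, below all 9 other arrays. Spry2 was 2.22-fold lower in Dox than in control (log2 change -1.15, SE 0.14, limma adjusted p = 1.88e-04) and rose 1.56-fold from Dox to SB+Dox (0.64, SE 0.14, adjusted p = 0.00654). Both calls held in every fit without 1 array and under all 8 other settings. The step from SB to SB+Dox was -0.45 (adjusted p = 0.0672), on all 3 arrays, and it passed after quantile normalisation (0.0126), with array weights (0.0157), with an eBayes trend (0.049), without control replicate 3 (0.0479) and without Dox replicate 3 (0.0466). Between SB and control the difference was -0.05 (95% confidence interval -0.35 to 0.24). Its upstream window (GRCm38.p6, chr14:105896820-105897069, minus strand) is shown because Spry2 had the largest change with doxycycline, and it too holds none of the motifs.
Spry2: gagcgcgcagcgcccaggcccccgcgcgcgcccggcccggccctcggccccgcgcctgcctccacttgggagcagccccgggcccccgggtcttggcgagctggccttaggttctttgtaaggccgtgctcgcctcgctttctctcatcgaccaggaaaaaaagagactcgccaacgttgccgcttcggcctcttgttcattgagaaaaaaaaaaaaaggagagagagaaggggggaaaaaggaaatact

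Spry1 measured 7.19, 7.42 and 7.25 in control, 6.68, 6.58 and 6.63 in Dox, 6.75, 7.07 and 7.37 in SB and 6.48, 6.94 and 7.08 in SB+Dox (log2 signal). Control and Dox did not overlap, while SB and SB+Dox spread over more than 0.5 each and overlapped with one another. Spry1 was 1.58-fold lower in Dox than in control (log2 change -0.66, SE 0.16, limma adjusted p = 0.0223). The fall did not pass without control replicates 2 or 3 (adjusted p = 0.0974 and 0.0559), Dox replicate 1 (0.0531), Dox replicate 2 (0.0808) or Dox replicate 3 (0.076), with arrays centred on their medians (0.0536) and with every cluster tested (0.0871). With the inhibitor present, doxycycline gave -0.23 (95% confidence interval -0.57 to 0.11). SB203580 itself gave -0.22 without doxycycline and 0.20 with it, and neither passed (adjusted p = 0.537 and 0.536).

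Dusp16, a phosphatase of JNK and p38, was the member called higher with the inhibitor whether or not doxycycline was given. Dusp8 and Spry4 also had all 3 inhibitor arrays above in both comparisons. Without doxycycline these 2 did not pass (0.45 and 0.24, limma adjusted p = 0.0668 and 0.472). Dusp16 measured 7.07, 6.92 and 6.71 in control, 6.67, 6.74 and 6.75 in Dox, 7.52, 7.36 and 7.40 in SB and 7.34, 7.28 and 7.28 in SB+Dox (log2 signal). All 6 arrays with SB203580 lay above all 6 without it. The rise was 1.44-fold without doxycycline (log2 change 0.53, SE 0.10, limma adjusted p = 0.00424) and 1.49-fold with it (0.58, SE 0.10, adjusted p = 0.00113), and both held in every fit without 1 array and under all 8 other settings. Doxycycline gave -0.18 without the inhibitor and -0.13 with it (95% confidence intervals -0.39 to 0.03 and -0.34 to 0.08). Against control, SB+Dox was higher by 0.40 (adjusted p = 0.0268), which no longer passed without control replicates 2 or 3 (0.0694 and 0.106) or any of SB+Dox replicates 1, 2 and 3 (0.0954, 0.0802 and 0.0749), with every cluster tested (0.0648) and with only the groups compared (0.0604).

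Dusp8, also a phosphatase of JNK and p38, measured 7.62, 7.55 and 7.25 in control, 7.60, 7.92 and 8.06 in Dox, 8.07, 7.87 and 7.82 in SB and 8.49, 8.36 and 8.67 in SB+Dox (log2 signal). SB+Dox lay above all 9 other arrays, Dox and SB overlapped, and control had the lowest mean, with SB above it and Dox replicate 1 within its range. Over control, Dusp8 was 2.05-fold higher in SB+Dox (log2 change 1.03, SE 0.14, limma adjusted p = 3.65e-04) and over Dox 1.57-fold (0.65, SE 0.14, adjusted p = 0.0052). Both held in every fit without 1 array and under all 9 other settings, which included the second cluster. It stood 1.5-fold above SB (0.59, adjusted p = 0.0153), but did not pass without SB replicate 2 (0.0654) or SB+Dox replicate 3 (0.0917) or with every cluster tested (0.0546).

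Each agent alone gave Dusp8 a smaller change that did not pass, 0.45 for SB203580 (adjusted p = 0.0668) and 0.39 for doxycycline (adjusted p = 0.145). On the second Dusp8 cluster, which measured 5.65 ± 0.16 in control and 6.87 ± 0.26 in SB+Dox, with Dox at 6.23 ± 0.18 and SB at 6.16 ± 0.14 (log2 signal, SD, n = 3), both passed (0.51, adjusted p = 0.0383, and 0.57, adjusted p = 0.0224). The first change also passed after quantile normalisation (0.0395), with an eBayes trend (0.0462) and without Dox replicate 1 (0.0455), and the second without Dox replicate 1 (0.0476). The Dusp8 window (GRCm38.p6, chr7:142095285-142095534, minus strand) and that of Dusp1 (chr17:26508473-26508722, minus strand) are shown together because they are the members with TGACGTCA and their transcripts had different patterns. Capitals mark TGACGT and TGACGTCA. The full element stands at -107 to -100 and -63 to -56 from the start in Dusp8 and at -143 to -136 in Dusp1, which also has the shorter form at -191 to -186.
Dusp8: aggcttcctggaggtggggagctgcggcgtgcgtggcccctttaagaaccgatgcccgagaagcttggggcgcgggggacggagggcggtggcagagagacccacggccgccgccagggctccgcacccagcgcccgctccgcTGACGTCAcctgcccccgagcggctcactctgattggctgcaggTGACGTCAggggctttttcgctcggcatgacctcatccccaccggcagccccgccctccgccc
Dusp1: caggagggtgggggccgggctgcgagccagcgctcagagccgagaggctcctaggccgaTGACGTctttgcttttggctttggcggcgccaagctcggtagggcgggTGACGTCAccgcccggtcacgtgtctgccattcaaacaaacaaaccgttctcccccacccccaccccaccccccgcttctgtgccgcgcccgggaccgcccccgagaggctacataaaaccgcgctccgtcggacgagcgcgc

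Dusp1, an immediate early gene whose product acts on p38 and JNK, measured 8.42, 8.67 and 8.07 in control, 7.06, 8.02 and 7.01 in Dox, 8.26, 8.30 and 7.55 in SB and 7.82, 8.19 and 7.67 in SB+Dox (log2 signal). In each group replicate 2 was the highest, and Dox replicate 2 stood nearly 1 unit above the other Dox arrays. Dusp1 was 2.02-fold lower in Dox than in control (log2 change -1.02, SE 0.26, limma adjusted p = 0.031), with all 3 Dox arrays below all 3 control arrays. It no longer passed without control replicates 1 or 2 (adjusted p = 0.101 and 0.135), Dox replicate 1 (0.131) or Dox replicate 3 (0.164) and with every cluster tested (0.124). SB203580 gave -0.35 without doxycycline and 0.52 with it (95% confidence intervals -0.90 to 0.20 and -0.03 to 1.08), and the latter was 0.85 without Dox replicate 2 and then passed (0.0285).

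Dusp10, a phosphatase of p38 and JNK, measured 7.51, 7.55 and 7.38 in control, 7.39, 7.61 and 7.42 in Dox, 7.43, 7.73 and 7.50 in SB and 7.88, 8.19 and 7.67 in SB+Dox (log2 signal). Control, Dox and SB overlapped, while the SB+Dox arrays lay above all control and Dox arrays and SB+Dox replicate 3 lay within the SB range. It rose 1.35-fold from Dox to SB+Dox (log2 change 0.44, SE 0.13, limma adjusted p = 0.0391). This was the least stable of the 6 rises: it was lost without control replicate 1 (0.0535), Dox replicate 1 (0.131), Dox replicate 3 (0.129), SB+Dox replicate 1 (0.0843) or SB+Dox replicate 2 (0.2), after quantile normalisation (0.0615), with only the groups compared (0.0611) and with every cluster tested (0.101). Against SB the change was 0.36 (adjusted p = 0.115), and it passed with the replicate number as a block (0.0319), the numbers pairing the SB and SB+Dox arrays. It also passed with arrays centred on their medians (0.0464).

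Dusp4, a nuclear phosphatase of ERK and JNK, measured 6.15, 6.17 and 5.95 in control, 6.04, 6.63 and 6.07 in Dox, 5.58, 5.71 and 5.81 in SB and 6.11, 6.94 and 6.77 in SB+Dox (log2 signal). SB lay below all 9 other arrays, and control, Dox and SB+Dox overlapped. From SB to SB+Dox, Dusp4 rose 1.87-fold (log2 change 0.90, SE 0.19, limma adjusted p = 0.00883), a call lost without SB+Dox replicate 3 (0.0513). The inhibitor gave -0.39 without doxycycline (adjusted p = 0.315) and 0.36 with it (adjusted p = 0.318), and the latter was 0.60 without SB+Dox replicate 1 and then passed (0.0327).

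Dusp5, the nuclear ERK phosphatase, was the member with no call in any comparison or setting. Its 12 values ran from 6.04 in control replicate 1 to 6.52 in control replicate 3 (log2 signal), and the group means were 6.19 ± 0.11 in Dox, 6.21 ± 0.05 in SB, 6.26 ± 0.24 in control and 6.39 ± 0.04 in SB+Dox (SD, n = 3). The widest difference was 0.20, between SB+Dox and Dox (95% confidence interval -0.04 to 0.43, limma adjusted p = 0.353), with all 3 arrays of the former above those of the latter. Its upstream window (GRCm38.p6, chr19:53528895-53529144, plus strand) is shown as the member with CArG boxes, of which there are 2, at -82 to -73 and -72 to -63, followed by TGACGT on the other strand at -56 to -51. Capitals mark these elements.
Dusp5: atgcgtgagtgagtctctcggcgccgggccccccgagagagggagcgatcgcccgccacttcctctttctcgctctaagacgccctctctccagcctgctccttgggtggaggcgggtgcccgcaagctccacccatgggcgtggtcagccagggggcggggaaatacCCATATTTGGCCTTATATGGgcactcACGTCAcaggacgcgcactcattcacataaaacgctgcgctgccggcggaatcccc

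The effect of doxycycline was then set side by side without and with the inhibitor. Without it (Dox against control) 3 of the 10 fell, Dusp1, Spry1 and Spry2, and 0 rose, where 5.31% of all clusters were called, 3.88% falling and 1.43% rising. With it (SB+Dox against SB) 3 rose, Dusp4, Dusp8 and Spry4, and 0 fell, where 7.11% were called, 4.40% rising and 2.71% falling. These counts leave out the pairing by number that SB and SB+Dox met. With the replicate number as a block 4 rose and 0 fell, Dusp10 being added (limma adjusted p = 0.0319). Of all clusters 1200 then rose and 772 fell. That block also covered control and Dox, which did not meet the rule for pairing. In that comparison the split of all calls moved with the scaling, from 959 rising and 591 falling to 1302 and 415 with arrays centred on their medians and to 851 and 800 after quantile normalisation, while the members called had 4 rising and 0 falling, and 3 rising and 1 falling, the latter Spry2. The median log2 change of the 10 was -0.21 and 0.27, beside 0.01 and -0.04 over all clusters. By arrays alone, 5 members had all Dox arrays below control and 0 had them above (10.8% and 9.12% of clusters), and 4 had all SB+Dox arrays above SB and 2 had them below (12.8% and 12.3% of clusters). Of the 3 falls, that of Spry2 alone held under every setting, and it was the only fall without control replicate 2, Dox replicate 1 or Dox replicate 3. Of the 3 rises none held throughout, and the count was 0 without SB+Dox replicate 3 and 1 without SB replicate 2. Without SB replicate 3, the array with the lowest weight, both counts were again 3.

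**Figure D4:**
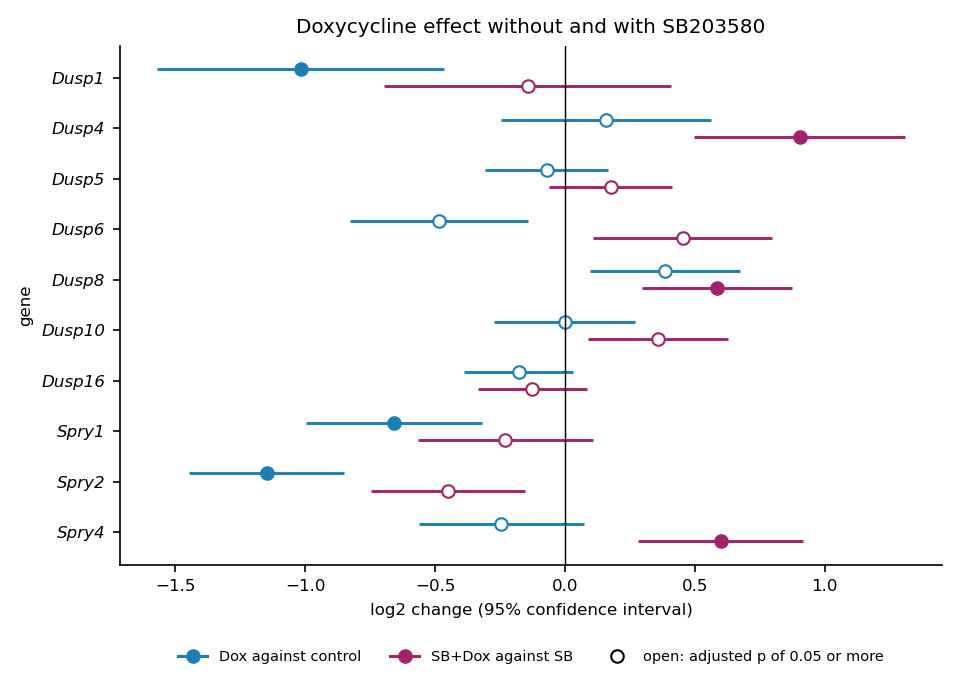
Log2 change with doxycycline (horizontal axis) for each gene, without SB203580 (Dox against control, blue) and with it (SB+Dox against SB, purple). Lines are 95% confidence intervals, and filled points have an adjusted p under 0.05. Dusp1, Spry1 and Spry2 are filled to the left of 0 in blue, and Dusp4, Dusp8 and Spry4 to the right of 0 in purple.

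Whether the doxycycline change differed with the inhibitor was tested by the interaction, the change in SB+Dox against SB minus that in Dox against control. All 10 members had a positive interaction, with a median of 0.56 beside -0.03 over all clusters, and 0 of 10 passed with limma at an adjusted p under 0.05, where 0.895% of all clusters did (158 positive and 37 negative, or 50 and 29 after quantile normalisation). At an unadjusted p under 0.05 there were 5 of 10 (Dusp1, Dusp4, Dusp6, Spry2 and Spry4), where 11.4% of clusters had one. With the replicate number as a block 2 passed, Dusp1 and Dusp6 (adjusted p = 0.0484 and 0.0437), although among the 4 groups only SB and SB+Dox met the rule for pairing by number. With array weights 2 passed, Spry2 and Spry4 (0.0358 and 0.0286), and without SB+Dox replicate 1 also 2, Dusp6 and Spry4 (0.026 and 0.0205). In the fit without these changes the interaction was 0.94 for Dusp6 (SE 0.23, limma adjusted p = 0.0777), 0.85 for Spry4 (SE 0.21, adjusted p = 0.0856) and 0.70 for Spry2 (SE 0.20, adjusted p = 0.14). For Dusp16 and Dusp8 it was 0.05 and 0.20 (95% confidence intervals -0.24 to 0.35 and -0.21 to 0.61). The 10 interactions share the same 12 arrays, and each is also the inhibitor's change with doxycycline minus that without it.

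Cells with both agents were also compared with control. Of the 10 members 3 were higher, Dusp8, Dusp16 and Spry4, and 1 was lower, Spry2, where 5.26% of all clusters were called, 2.84% higher and 2.42% lower. All 3 SB+Dox arrays lay above control for 4 members and below for 2 (12.5% and 10.7% of clusters). Spry2 was 1.42-fold lower (log2 change -0.50, SE 0.14, limma adjusted p = 0.0497), and its call was lost under 4 of 8 other settings, among them the replicate block (0.0522), and without control replicates 1 or 2 (0.22 and 0.118), Dox replicates 1 or 2 (0.0597 and 0.056), SB replicate 1 (0.0526), SB replicate 2 (0.0677), SB+Dox replicate 1 (0.159) or SB+Dox replicate 2 (0.173). Dusp10 was higher by 0.44 (adjusted p = 0.064), and passed under 5 of 8 other settings, with array weights at 0.0174, and without SB+Dox replicate 3 (0.0271). Dusp6 was higher by 0.53 (adjusted p = 0.0775), and passed with array weights (0.0133) and without SB+Dox replicate 1 (0.0106), as Dusp4 did without SB+Dox replicate 1 (0.0169).

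Relatives of these genes were examined next. Of 3 other MAP kinase phosphatases, Dusp7, which like Dusp6 acts on cytoplasmic ERK, moved the opposite way to Dusp6 in SB+Dox against Dox. It measured 8.55, 8.83 and 8.21 in control, 9.18, 9.62 and 8.98 in Dox, 7.60, 7.54 and 7.58 in SB and 7.65, 7.58 and 7.34 in SB+Dox (log2 signal). All 6 arrays with SB203580 lay below all 6 without it. Dusp7 fell 3.35-fold with the inhibitor in the presence of doxycycline (log2 change -1.74, SE 0.16, limma adjusted p = 7.50e-06). In the absence of doxycycline it fell 1.94-fold (-0.96, adjusted p = 0.00249). With doxycycline alone it rose by 0.73 (adjusted p = 0.0146). That rise did not pass without control replicate 3 or Dox replicate 2 (0.0711 and 0.0738). It was also lost with every cluster tested (0.0655) and with only the groups compared (0.053). Dusp2 measured 4.82 ± 0.04 in SB+Dox and 5.34 ± 0.23 in SB (log2 signal, SD, n = 3), a fall of 0.52 (adjusted p = 0.00842) at levels at or below the array medians. Dusp9 did not pass in the fit without a block, with Dox replicate 2 at 7.21 and the other 11 arrays between 5.68 and 6.25. With the replicate block it passed in SB+Dox against Dox (-0.59, adjusted p = 0.0437) and in Dox against control (0.64, adjusted p = 0.0437). Only SB and SB+Dox met the rule for pairing by number given below.

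Among 4 other Sprouty and SPRED genes, whose products also restrain Ras and ERK, the only call was a rise in SB+Dox against Dox. In that comparison 6.97% of all clusters rose and 3.43% fell. The gene called was Spred2. It measured 7.16, 7.12 and 7.30 in Dox and 7.39, 7.82 and 7.84 in SB+Dox (log2 signal), a rise of 0.49 (limma adjusted p = 0.0295) that was lost in 4 of the 12 fits without 1 array and under 3 other settings. Spred1 changed by -0.34 with doxycycline without the inhibitor and -0.31 with it (adjusted p = 0.102 and 0.114), on all 3 arrays each time, without passing. Spry3, at 3.39 to 3.95 on all arrays, and Spred3, at 5.39 to 5.93, had no call.

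**Figure D5:**
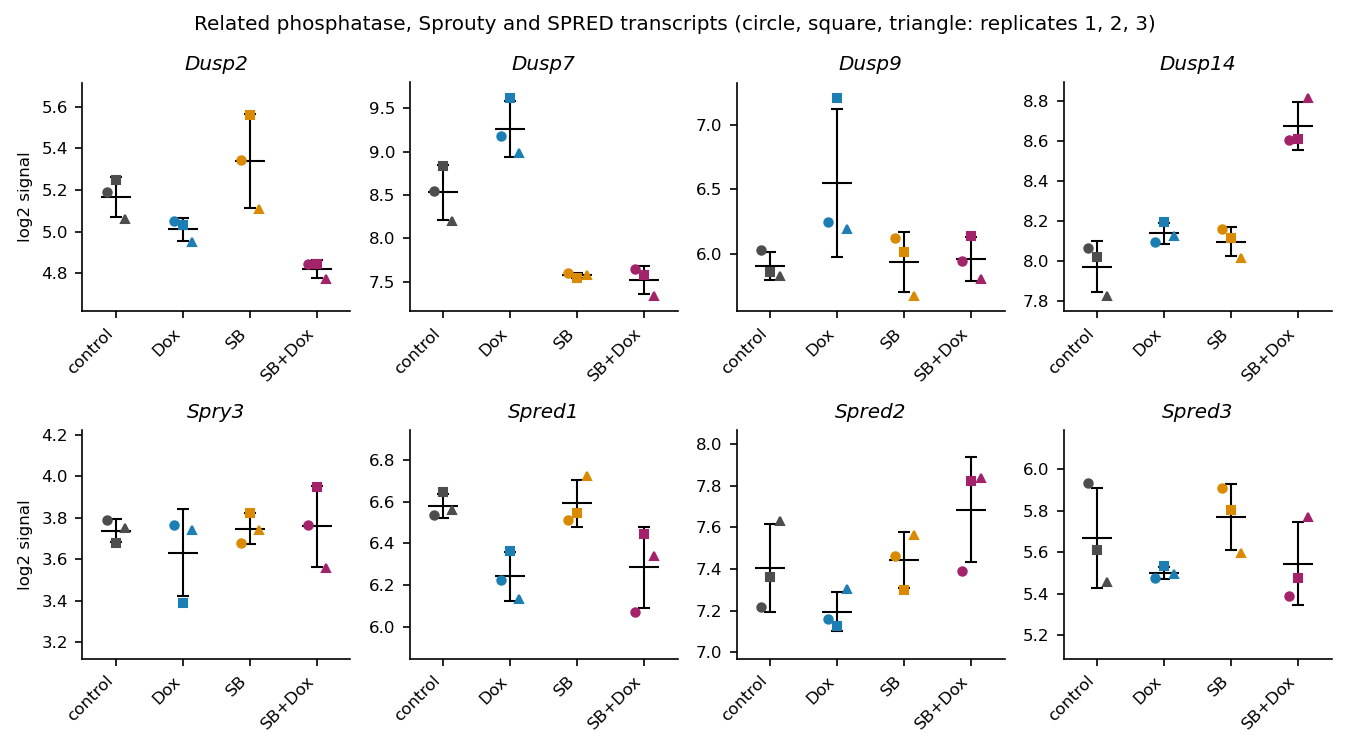
Log2 signal (vertical axis, own scale for each gene) of 4 related phosphatase genes and 4 Sprouty and SPRED genes in control, Dox, SB and SB+Dox cells. Points are arrays, bars with whiskers are the mean ± SD of 3 arrays. Dusp7 is lower on all 6 arrays with SB203580, and Dusp14 is highest in SB+Dox.

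Of 11 atypical dual-specificity phosphatases, small relatives without the kinase-binding domain, 1 fell and 0 rose in SB against control, and 2 fell and 1 rose in SB+Dox against Dox. Over all clusters 3.87% fell and 2.51% rose in the former and 3.43% fell and 6.97% rose in the latter, and the single call of the former is near that share. The median log2 changes of the 11 were -0.01 and -0.06, beside 0.03 and -0.03 over all clusters. Dusp18 fell in both (log2 changes -0.76 and -0.50, limma adjusted p = 6.38e-04 and 0.0069) and Dusp28 in the latter (-0.62, adjusted p = 0.00147). Dusp14 rose by 0.54 in the latter (adjusted p = 0.00173). These 4 calls held in all fits without 1 array. Of 8 other phosphatases known to act on MAP kinases none was called in either comparison, where 6.38% and 10.4% of all clusters were. Ppm1a had the widest change in the first (-0.31, adjusted p = 0.0504), which passed under 5 of 8 other settings, among them array weights (0.0175), and without SB replicate 3 (0.0487), and Ppm1b in the second (0.17, adjusted p = 0.349). Ppm1b rose by 0.34 in SB+Dox against SB (adjusted p = 0.0484), a call lost in 10 of the 12 fits without 1 array.

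The kinases that these inhibitors act on, and their activating kinases, had 2 raised and 2 lowered among 21 measured in SB against control and 5 raised and 1 lowered in SB+Dox against Dox, where 2.51% of all clusters rose and 3.87% fell, and 6.97% rose and 3.43% fell. The median log2 changes of the 21 were -0.01 and 0.09, beside 0.03 and -0.03 over all clusters. Map2k6, an activating kinase of p38, rose by 2.29 and 2.76 (limma adjusted p = 2.34e-07 and 1.46e-08) and Map3k4, which acts further upstream, by 0.76 and 1.14 (adjusted p = 0.00715 and 1.93e-04). Mapk14, the gene of p38α, rose by 0.55 in the latter (adjusted p = 0.00115). Mapk12, the gene of p38γ, fell by 0.43 in the former (adjusted p = 0.0475), a call lost in 8 of the 12 fits without 1 array. Of the 19 measured genes between receptors and Ras, 0 rose and 3 fell in SB against control, and 2 rose and 2 fell in SB+Dox against Dox, to be read beside the same shares of all clusters. Their medians were -0.14 and -0.02. Pdgfrb, a receptor for platelet-derived growth factor, fell by 0.89 and 0.72 (adjusted p = 0.0118 and 0.027), Nras by 0.46 and 0.43 (0.0246 and 0.0235) and Igf1r by 0.54 in the former (0.0422), while Rasgrp3, an exchange factor for Ras, rose by 0.53 in the latter (0.0224). Each of these 6 calls was lost in 3 to 7 of the 12 fits without 1 array.

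Of 24 genes known to respond to ERK 22 were measured, and these had 0 raised and 5 lowered in SB against control and 7 raised and 3 lowered in SB+Dox against Dox, where 2.51% of all clusters rose and 3.87% fell, and 6.97% rose and 3.43% fell. Their median log2 change was -0.21 in the former and 0.05 in the latter, beside 0.03 and -0.03 over all clusters. Without doxycycline Ptgs2, a prostaglandin synthase, fell by 1.97, the growth factor gene Hbegf by 0.90 and Ier3 by 0.78 (limma adjusted p = 5.72e-05, 6.91e-05 and 0.0025). With doxycycline Ccnd1, the gene of cyclin D1, rose by 1.44 (adjusted p = 2.00e-05), whereas Ptgs2 fell by 1.33 and Junb, an AP-1 factor, by 1.16 (adjusted p = 6.79e-04 and 6.11e-05). Ccnd1 measured 7.77, 7.49 and 8.07 in control, 6.51, 6.44 and 6.37 in Dox, 7.98, 7.67 and 7.94 in SB and 7.58, 7.98 and 8.09 in SB+Dox (log2 signal). Dox thus stood below all 9 other arrays, as it did for Spry2, Dusp6 and Spry4. The share of all clusters with this pattern was not counted. The interaction passed for 3 of the 22, Ccnd1, Etv5 and Hbegf, and for 1 of the 21 kinases, Mapk6, where 0.895% of all clusters passed. Etv5 and Mapk6 were named after their values were seen. Of these calls, that of Hbegf was lost in all 12 fits without 1 array, that of Etv5 in 11, that of Mapk6 in 7 and that of Ccnd1 in 1, without SB replicate 2 (adjusted p = 0.0525).

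The genes whose values ran most like those of a member were sought among 17331 others by Pearson correlation over the 12 arrays, for the 9 members with a call in a comparison of groups. The closest were Itpr3 to Spry4 (0.996), Zfp704 to Dusp16 (0.99), Nt5dc3 to Dusp8 (0.967), Sphk1 and Ly6e to Spry2 (0.964 each), Il34 to Dusp4 (0.951), Tln2 to Spry1 (0.945), Hspb8 to Dusp10 (0.944), Kat14 to Dusp1 (0.928) and Tmc6 to Dusp6 (0.918). Itpr3, the gene of an inositol trisphosphate receptor, was also second for Dusp6 (0.908), and Dusp14 was second for Dusp8 (0.935). Itpr3 measured 7.01 ± 0.05 in Dox, 7.12 ± 0.02 in control, 7.24 ± 0.06 in SB and 7.53 ± 0.16 in SB+Dox (log2 signal, SD, n = 3), the same order of groups as Spry4 over a narrower range. These are the highest of many correlations and a description of these arrays.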

How the data were processed

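The authors deposited log2 signals from RMA, run in Affymetrix Expression Console per the submitters' processing notes, with 1 value for each transcript cluster on each array. The version, genome build and annotation used are not given in the sources used here. Values ran from 0.5 to 13.17, with 0 missing. Of 35557 clusters, the 21789 that GEO's platform annotation gives exactly 1 symbol were tested. The 1621 with several and 12147 with none entered only an alternative.

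Group means were estimated from all 12 arrays in 1 limma fit (3.58.1, R 4.3.3; eBayes with neither trend nor robust option; residual degrees of freedom 8, prior 6.56). P-values were adjusted over all tested clusters within each of 6 comparisons by the Benjamini-Hochberg method, with a threshold of 0.05. Tested on simulated data for SB against control, the fit recovered 78% of 50 clusters changed 1.5-fold and 92% of 50 changed 2-fold, with 9 calls among 21589 unchanged ones. The simulated noise was normal and independent between arrays, around 1 mean per cluster, and the other groups did not differ. It had no pairing and no arrays of lower quality, so these rates may not hold for the real arrays.

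The members and gene lists were chosen with earlier results of these data known. Of 97 other pathway genes 88 were measured. Lists of up to 4 genes were named in full. From longer lists up to 3 called genes with the widest change in SB against control and in SB+Dox against Dox were named, or the widest if none was called. For each called member the 3 genes most like it were sought, leaving aside microRNAs, olfactory receptors, small nucleolar RNAs and predicted genes, and the closest is printed.

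To see whether replicate numbers pair the arrays, group means were removed and same-numbered arrays correlated. SB and SB+Dox gave 0.436, 0.194 and 0.493, all over 0.1, and were taken as paired. Each of the other 5 pairs of groups had a correlation under 0.1. Dox and SB+Dox missed this rule narrowly, with 0.0875, 0.282 and 0.148. There each Dox array correlated most with the SB+Dox array of its own number, so their pairing was not settled. Alternatives were a replicate block, median centring, quantile normalisation, leaving out clusters under the 25th percentile, an eBayes trend, array weights, every cluster tested, only the groups compared, the second Dusp8 cluster, and each array left out in turn. For the other named genes they were added after the values were seen.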

Additional observations from a re-analysis of the deposited data

Results flagged for a closer look

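Dusp6 is listed because the doxycycline change ran in opposite directions without and with the inhibitor, all 3 Dox arrays lying below control and all 3 SB+Dox arrays above SB. The interaction was 0.94 and did not pass (limma adjusted p = 0.0777). In the pathway lists the interaction passed in the limma fit for 4 of the 88 measured genes, where 0.895% of all clusters passed. The 4 were Ccnd1 (1.36, adjusted p = 0.0135), Mapk6 (0.65, adjusted p = 0.0275), Etv5 (1.14, adjusted p = 0.048) and Hbegf (0.63, adjusted p = 0.05 after rounding, and under the threshold). The Ccnd1 call was lost in 1 of the 12 fits without 1 array (without SB replicate 2, adjusted p = 0.0525), that of Mapk6 in 7, that of Etv5 in 11 and that of Hbegf in all 12.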

How the results depend on the processing

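Of 50 changes of the 10 members between groups, 17 passed, and 9 of these passed under every alternative and without every single array: Dusp16 in SB against control, Dusp6, Dusp8, Dusp16, Spry2 and Spry4 in SB+Dox against Dox, Spry2 in Dox against control, and Dusp8 and Spry4 in SB+Dox against control. Of the 33 that did not pass, 21 passed under none of them. Over 1196 combinations of a member change, interactions included, and a setting, 48 lost a call, 34 gained one and 0 reversed a called direction. The member counts were 1, 6, 3, 3, 4 and 0 for SB against control, SB+Dox against Dox, SB+Dox against SB, Dox against control, then SB+Dox against control and, last, the interaction. The count in SB against control was 2 after quantile normalisation and 2 with an eBayes trend, each adding Dusp8. With every cluster tested it was 1 in SB+Dox against SB, 1 in Dox against control and 2 in SB+Dox against control. With only the groups compared it was 2 in SB+Dox against control, and array weights gave 7 there and 2 in the interaction (Spry2 and Spry4).

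The clusters called with array weights were 2794, 3076, 1831, 1935 and 678 in the same order without SB+Dox against Dox, beside 1390, 1550, 1156, 1146 and 195. With every cluster tested they were 876 in SB against control, 696 in SB+Dox against control and 6 in the interaction, which had 79 after quantile normalisation. The causes were not tested. In the setting with every cluster, 35557 clusters were tested in place of 21789.

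A replicate block gave 2 members in the interaction, Dusp1 and Dusp6 (adjusted p = 0.0484 and 0.0437), and 421 clusters. It also gave a call to Dusp1 in SB+Dox against Dox (0.0304) and to Dusp10 in SB+Dox against control (0.0135), and took one from Spry2 there (0.0522). Only SB and SB+Dox met the rule for pairing by number, and there the block changed the call of Dusp10 alone among the members.

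Without 1 array, the member counts ran from 1 to 2, 5 to 7, 0 to 4, 1 to 4, 2 to 4 and 0 to 2 over the 6 comparisons in the order above. The clusters called ran from 779 to 1644, 1614 to 2511, 724 to 2521, 744 to 1305, 644 to 1351 and 27 to 352. The lowest counts in SB+Dox against SB, 0 and 724, were without SB+Dox replicate 3. Without SB+Dox replicate 1 the interaction passed for Dusp6 (0.026) and Spry4 (0.0205). No background signal was available, so a floor for dim genes could not be set.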
